A study of Mus musculus with 6 samples.

Results

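Binding sites near 9 genes of Reelin signalling and neuronal migration were followed through 5 lists of peaks of the transcription factor E2A. The genes are Reln, Vldlr, Lrp8, Dab1, Pafah1b1, Dcx, Dclk1, Rnd2 and Rnd3. A peak was assigned to a gene where the deposited annotation names that gene as the nearest, at any distance. The 9 genes are among 12140 named in any list, and they took 246 of 91185 peaks. E2A binding had been mapped by chromatin immunoprecipitation and sequencing (ChIP-seq) with a rabbit antibody to E2A (1.5 µg) in neural stem cells of E12.5 mouse embryos. The groups were cells without the E12 splice form (E12KO, 1 library), cells without the E47 splice form (E47KO, 1 library), wild-type cells (wt, 3 libraries) and an input DNA that was not analysed here. All cells were of the strain C57BL/6J, proliferated in medium containing both EGF and FGF-2 (20 ng/ml each) and were crosslinked first in EGS, a protein crosslinker (1.5 mM, 20 min), and then in formaldehyde (1%, 10 min). The labels do not state how the alleles were made, nor from how many embryos or cultures the libraries came.

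Reelin is a large secreted protein that positions migrating neurons in the developing cortex, where Cajal-Retzius cells are its best known early source. It binds the receptors VLDLR and ApoER2, the product of Lrp8, and both pass the signal to the adaptor DAB1, which Src family kinases then phosphorylate on tyrosine. Pafah1b1 encodes LIS1, a regulator of the motor dynein, Dcx and Dclk1 encode microtubule-associated proteins, and Rnd2 and Rnd3 encode atypical small GTPases that act on the cytoskeleton. E12 and E47 are products of the gene Tcf3 and bind the E-box, CANNTG, as dimers with other basic helix-loop-helix (bHLH) proteins. In mouse cortex, Rnd2 is known as a target of the bHLH factor Neurog2.

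Of the 9 genes, 8 matched 14 promoter windows of RefSeq (build GRCm38.p6), of which the 250 bases before each start were searched on both strands. CANNTG was found in 9 of these 14 windows and in 66.2% of all 32851 windows of the same length. CAGCTG was in 1 of 14, against 13% of all windows, and CAGGTG or its complement CACCTG in 5 of 14, against 17.2%; both are forms of CANNTG. The stretches printed here, with E-box letters in capitals, are chosen examples, so they do not show how often E-boxes and peaks coincide. Of those not printed, CATCTG of Rnd3, CAATTG of Dab1 and CACATG and CAAGTG of Lrp8 lay at distances that no list covered. CAGATG and CATCTG of Lrp8 and a further CAACTG of Vldlr lay at distances covered in at least 4 lists. CAAATG and CACATG of the outermost Dclk1 start were covered in wt replicate 1 alone, and CACGTG of Reln could not be placed. Peaks have mm9 positions, so the windows were set beside them only by distance from the start within the gene.

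The Pafah1b1 window is shown whole because its start lay under a peak in all 5 lists while it holds no CANNTG (chr11:74723859-74724108, minus strand, 5′ to 3′).
Pafah1b1: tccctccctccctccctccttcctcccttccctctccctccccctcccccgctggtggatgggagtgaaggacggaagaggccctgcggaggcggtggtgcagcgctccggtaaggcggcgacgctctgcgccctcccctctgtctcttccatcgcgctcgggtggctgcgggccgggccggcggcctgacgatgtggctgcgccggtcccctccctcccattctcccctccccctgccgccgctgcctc

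Vldlr has a second start 540 bp downstream of the start in the peak tables, and the window before it held 3 E-boxes. Promoter peaks of E12KO, E47KO and wt replicate 3 reached over that distance, and those of wt replicates 1 and 2 ended before it. The stretches with the central CAACTG (chr19:27216851-27216880) and with CAGCTG (chr19:27216876-27216905), both on the plus strand and overlapping by their ends, lay 386 and 411 bp downstream of the Vldlr start of the peak tables, a distance that a peak covered in all 5 lists.
Vldlr, CAACTG: agggtacagtagCAACTGtagggagctagg
Vldlr, CAGCTG: ctagggagcgcaCAGCTGctgcggccgcag

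Lrp8 has 2 internal starts under peaks. At the upstream internal start the stretch chr4:107823068-107823097 lay at a distance covered in E12KO, E47KO and wt replicate 1, and at the downstream internal start the stretch chr4:107830726-107830755 lay at a distance covered in all 5 lists (plus strand).
Lrp8, upstream internal start: tttttaaattgaCAGGTGatgcatccatgc
Lrp8, downstream internal start: gtcacacagccaCAGGTGgcaccagagacc

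The internal start of Dclk1 (chr3:55461605-55461634, plus strand) likewise had a peak over this distance in all 5 lists. The internal start of Dab1 (chr4:104367455-104367484, plus strand) had a peak there in E12KO and wt replicate 3, while the outermost start of Dab1 (chr4:103619355-103619384, plus strand) had no peak over it in any list although its window holds the same CAGGTG.
Dclk1, internal start: gtgtgtccctatCACCTGcaacttgccagg
Dab1, internal start: gacgctcagtggCAGGTGagcggcggggct
Dab1, outermost start: ccacactgtggcCAGGTGcagccaagccac
A match describes letters only, and a window without one says nothing about the factor.

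The lists differ in length, with 25229 peaks in E12KO, 22176 in E47KO, and 6814, 12772 and 24194 in wt replicates 1, 2 and 3. Read depth is unknown because the tables hold peaks and no read totals, and each knockout has 1 library, so no test was made between genotypes and knockout values have no replicate error. Peak positions show neither which exon was lost nor what the cells expressed, so neither the genotype nor the cell type could be checked against markers. The nearest gene is a position and not a shown target.

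Peaks naming the 9 genes numbered 58 in E12KO and 56 in E47KO, and 20, 43 and 69 in wt replicates 1, 2 and 3, a wt mean of 44 ± 24.5 (SD, n = 3). Both knockout counts lay between those of wt replicates 2 and 3. As a part of each list the genes took 0.23% in E12KO and 0.253% in E47KO, and 0.294%, 0.337% and 0.285% in wt replicates 1, 2 and 3. All 9 genes had a wt consensus region, that is, a merged wt region present in at least 2 of the 3 wt lists, against 27.6% of 21900 protein-coding genes. That background counts genes of every length and activity, and the 9 genes were chosen with results of these data known, so the count describes them and carries no test. Within 10 kb of a start 7 of the 9 still had such a region; Reln and Dcx had only regions farther away. Without wt replicate 3, 8 of the 9 had one, Reln being the exception. The 27.6% is for any distance and all 3 wt lists, so it is no background for these narrower counts. They have no share over all genes beside them and describe the 9 genes only.

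**Figure D1:**
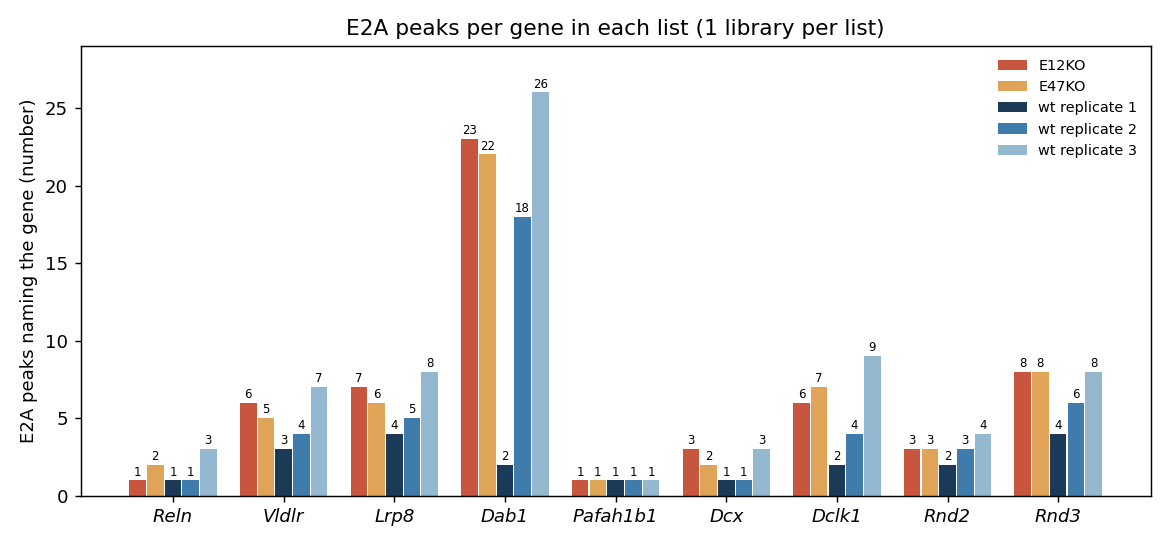
Bars give the number of E2A peaks that name each gene as nearest in each list, with E12KO and E47KO left of wt replicates 1, 2 and 3; each bar is 1 library and carries its value. Dab1 stood above the other 8 genes in every list but that of wt replicate 1, where it had 2 peaks and Lrp8 and Rnd3 had 4 each.

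The 246 peaks merged into 80 sites, where peaks of any list that shared at least 1 bp were joined. Of these, 13 (16.2%) were in all 5 lists, against 12.7% of all 32693 sites. Another 24 (30%) were in 4 lists, 13 (16.2%) in 3, 12 (15%) in 2 and 18 (22.5%) in 1. Over all sites these shares were 21.9%, 20.7%, 16.2% and 28.4%. Sites in more lists were wider, with a median merged width of 1010 bp for those in 5 lists and 284.5 bp for those in 1, and merging more peaks can itself widen a site. The most frequent pattern was presence in E12KO, E47KO and wt replicates 2 and 3 without wt replicate 1, at 22 sites (27.5%), against 19.1% of all sites. Dab1 held 13 of the 22, and without Dab1 the pattern was found at 9 of 49 sites (18.4%). Sites of the 9 genes lay within 10 kb of an annotated start at 23 of 80 (28.8%), against 41.1% of all sites. Dab1 had 4 of these 23 among its 31 sites, and without it 19 of 49 (38.8%) lay that near; leaving out Dab1 was chosen after the data were seen.

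Reln, the ligand, had few sites and none near a start given in the tables. It carried 1 peak in E12KO and 2 in E47KO, and 1, 1 and 3 in wt replicates 1, 2 and 3. All 3 sites were intronic. The site in intron 4 of 63 (chr5:21670130-21670556, mm9, as for all peaks) was listed in E47KO and in wt replicates 1 and 3, and not in E12KO or wt replicate 2. In wt replicate 1, the only list with scores, its fold enrichment over the peak caller's background was 6.29. The site in intron 20 (chr5:21537419-21538092) was in both knockouts and in wt replicates 2 and 3. The third, in intron 27, was in wt replicate 3 alone. The only Reln start in the tables belongs to a short internal transcript, so distances to the start of the full gene are not given.

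Vldlr, the gene of a Reelin receptor, had 6 peaks in E12KO and 5 in E47KO, and 3, 4 and 7 in wt replicates 1, 2 and 3. Its 8 sites ran from far upstream into intron 1, and 2 of them were in all 5 lists. The farthest, chr19:27140199-27141835, lay 149.7 kb upstream in intergenic sequence and was 15.5-fold enriched in wt replicate 1 (−log10 q 43.9, by which it ranked 926 of 6814 peaks). The other shared site lay over the promoter (chr19:27291232-27292551, 8.9-fold). Its peaks covered the start in E12KO, E47KO and wt replicates 1 and 3, while the 200 bp peak of wt replicate 2 began 325 bp downstream of it. The site 139.5 kb upstream (chr19:27151440-27151973) was in E12KO and in wt replicates 2 and 3 but not in E47KO or wt replicate 1. The site 5.62 kb upstream (chr19:27285479-27285890) was missing from both knockouts and from wt replicate 2, and present in wt replicates 1 and 3. Of 4 wt consensus regions, 3 had a peak in E12KO and 2 in E47KO.

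Lrp8, which encodes the other receptor, held its peaks mainly inside the gene. It had 7 peaks in E12KO and 6 in E47KO, and 4, 5 and 8 in wt replicates 1, 2 and 3. All 5 wt consensus regions lay inside Lrp8 and all 5 had a peak in both knockouts. The 3 sites in all 5 lists lay in intron 2 and over the internal starts. The intron 2 site (chr4:107489699-107490708) lay 14.84 kb into the gene and was 15.3-fold enriched. The site at the upstream internal start (chr4:107495675-107496626) was 7.42-fold enriched, and the site at the downstream one (chr4:107502774-107504022) 11.7-fold. The printed CAGGTG stretches lay at distances covered by peaks of 3 lists at the upstream start and of all 5 at the downstream start. The listed start minus the window's start was -59 bp at the former and -47 bp at the latter, so this placing is approximate. At the outermost start, a site 136 bp downstream (chr4:107475000-107476868) was in every list but wt replicate 1, and a separate 512 bp site 111 bp upstream was in wt replicate 3 alone. A site annotated to the 3′ UTR, 34.3 kb from the outermost start (chr4:107509164-107509964), was in the same 4 lists as the site near that start. Lrp8 runs on past this site, to the peaks described next. Inside Lrp8, E12KO and wt replicates 1 and 3 each had a peak in an exon for which the tables name Magoh as the nearest gene. These peaks lay 22226, 22218 and 22278 bp upstream of the Magoh start and are not counted among those of Lrp8.

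Dab1, the gene of the adaptor that both receptors signal through, had the most peaks in 4 of the 5 lists, spread along a very long gene. It carried 23 peaks in E12KO and 22 in E47KO, and 2, 18 and 26 in wt replicates 1, 2 and 3, where the wt mean was 15.3 ± 12.2 (SD, n = 3). By peaks per gene Dab1 ranked 12 in E12KO and 9 in E47KO, and 610, 4 and 3 in wt replicates 1, 2 and 3. The longest Dab1 transcript in the tables spans 1061 kb, and 29 of the 31 sites lay inside the gene. By number of wt consensus regions Dab1, with 16, ranked 3 of 6431 genes with any, a rank shared by 5 genes. All regions naming a gene, inside it or not, were also divided by the length of its longest transcript. Dab1 had 1.51 per 100 kb, rank 8 of 158 protein-coding genes with a listed transcript of at least 500 kb. The median of these genes was 0.255 and their highest value was 2.98.

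The Dab1 regions were spaced along the gene and not gathered at its start. Of the 16 consensus sites, 4 lay in intron 1, 1 in intron 2, 5 in intron 3, 3 in intron 4 and 2 in intron 6. The remaining site lay 4.242 kb upstream of the outermost start (chr4:103287542-103288028). The sites ran over 1029 kb with a median gap of 57.6 kb between neighbours, from 1.17 to 210 kb. A peak was found at all 16 in E12KO and at 15 in E47KO. The missing one was in intron 1 (chr4:103513650-103514211), in E12KO and wt replicates 2 and 3. Its neighbour 1.17 kb away in the same intron (chr4:103511983-103512475) was in E12KO, E47KO and wt replicates 2 and 3.

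**Figure D2:**
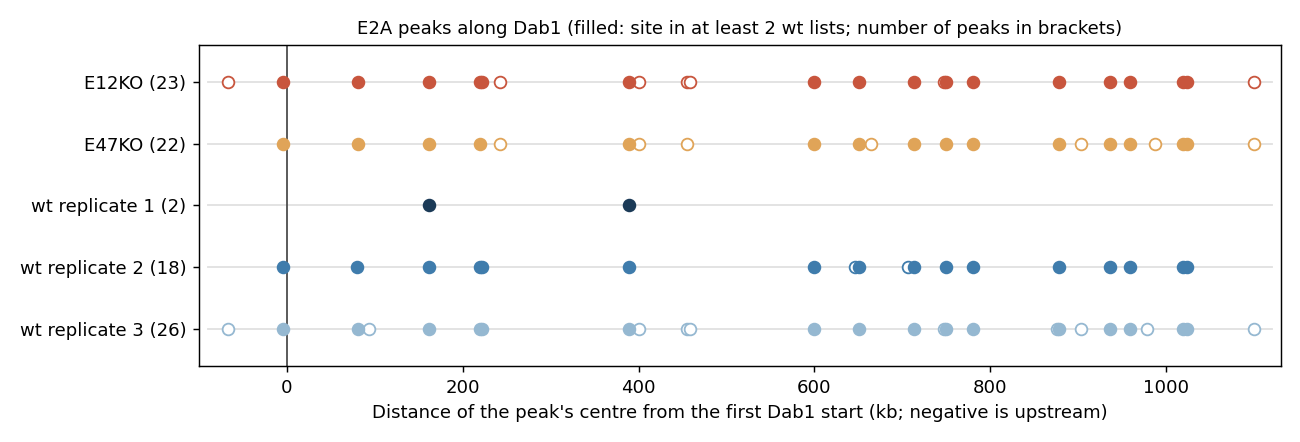
Each point is an E2A peak placed by the distance of its centre from the outermost Dab1 start in kb (negative is upstream), with E12KO and E47KO above wt replicates 1, 2 and 3. Filled points belong to the 16 sites in at least 2 wt lists, open points to other sites; wt replicate 1 has 2 of the 16, and E12KO, E47KO and wt replicate 2 have 16, 15 and 16.

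Only 2 Dab1 sites were in all 5 lists, in intron 1 (chr4:103453870-103454421, 5.74-fold) and intron 2 (chr4:103681026-103681489, 7.73-fold). The median of the wt replicate 1 list was 7.48-fold. The 2 Dab1 peaks of wt replicate 1 were 7.69% of the 26 in wt replicate 3. The whole wt replicate 1 list held 28.2% as many peaks as that of wt replicate 3. Over the 248 genes with at least 10 peaks in wt replicate 3 the median was 30%, with quartiles of 20% and 41.7%, and 13 of them (5.24%), Dab1 included, were at or below the Dab1 value. The low Dab1 count is thus low even for that short list, and its cause was not tested. At the internal start (chr4:104039469-104040393) E12KO and wt replicate 3 had a peak, while 878 bp farther on a site in intron 3 (chr4:104041043-104042006) was in both knockouts and wt replicates 2 and 3.

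The 3 other genes whose peak counts over the 5 lists were nearest to those of Dab1, by Euclidean distance, were Nfia (6.63 peaks), Tcf4 (7.21 peaks) and Ncam1 (7.28 peaks). Nfia had 26 peaks in E12KO and 23 in E47KO, and 7, 18 and 23 in wt replicates 1, 2 and 3. Tcf4 had 24 and 23 in E12KO and E47KO, and 6, 15 and 21 in the wt replicates. Ncam1 had 26 and 22 in E12KO and E47KO, and 4, 12 and 24 in the wt replicates. All 3 had more peaks than Dab1 in wt replicate 1 and fewer in wt replicate 3.

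Pafah1b1, the LIS1 gene, showed the opposite arrangement, with 1 peak in each of the 5 lists, over its promoter (chr11:74536850-74538334). The peak was 1206 bp wide in E12KO and 1223 bp in E47KO, and 693, 1008 and 1417 bp in wt replicates 1, 2 and 3. It covered the start in every list. In wt replicate 1 it had the highest fold enrichment of the 20 peaks of the 9 genes, 15.9-fold, with a −log10 q of 59.3, by which it ranked 619 in the list. In all 5 lists the peak reached over the 250 bp before this start, and the 250 bases of the window printed above hold no CANNTG.

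Dcx, whose protein binds microtubules in migrating neurons, had 3 peaks in E12KO and 2 in E47KO, and 1, 1 and 3 in wt replicates 1, 2 and 3. All 3 sites were in intron 3 of 6. The site 25.81 kb downstream of the start (chrX:140340961-140341858) was in all 5 lists at 6.18-fold. The site 30.4 kb downstream was in both knockouts and wt replicate 3, and the site 48.55 kb downstream in E12KO and wt replicate 3. No list had a Dcx peak within 10 kb of its start.

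Dclk1, its relative with a kinase domain, had 6 peaks in E12KO and 7 in E47KO, and 2, 4 and 9 in wt replicates 1, 2 and 3. All 5 lists had a peak over the internal start, 219.2 kb from the outermost one (site chr3:55265157-55266445). The peak of wt replicate 1 there was 4.77-fold enriched, and by its −log10 q of 6.17 it ranked 6069 of 6814. The outermost start had a peak in wt replicate 1 alone (chr3:55046296-55046667), at 8.93-fold and a −log10 q of 21.3. Of the 2314 peaks of wt replicate 1 with a −log10 q of at least 20, 157 (6.78%) were likewise in no other list. Introns held the other 3 wt consensus regions. Those 41.42 kb (chr3:55087865-55088651) and 131.2 kb (chr3:55177671-55178178) from the outermost start were in both knockouts and wt replicates 2 and 3. That at 109.3 kb (chr3:55155737-55156085) was missing from E12KO, E47KO and wt replicate 1 and present in the other wt lists. Of 12 Dclk1 sites, 5 were in a single list, against 28.4% of all sites.

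Rnd2 had 3 peaks in E12KO and 3 in E47KO, and 2, 3 and 4 in wt replicates 1, 2 and 3, at 4 sites that all lay near the gene. The site in all 5 lists (chr11:101328600-101329731) lay at the start of a shorter Rnd2 transcript, 3.298 kb downstream of the outermost start. Peaks of E12KO, E47KO and wt replicate 3 covered that start, and those of wt replicates 1 and 2 ended 33 and 6 bp before it. Its fold enrichment of 4.52 was the lowest among the 20 peaks of wt replicate 1. A site 1.768 kb upstream of the outermost start lay in exon 2 of 5 of the neighbouring gene Vat1 (chr11:101323876-101324586) and was in both knockouts and wt replicates 2 and 3. The pair downstream of the gene was listed unevenly. The nearer site, 12.44 kb from the outermost start (chr11:101338795-101339287), was in E47KO and wt replicates 2 and 3 and not in E12KO. The farther one, at 14.29 kb (chr11:101340648-101341114), was in E12KO and wt replicates 1 and 3 and not in E47KO.

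Rnd3 had 8 peaks in E12KO and 8 in E47KO, and 4, 6 and 8 in wt replicates 1, 2 and 3. Each of its 8 sites was in both knockouts, and 7 held a wt consensus region. The promoter site (chr2:51002395-51004769) was in every list but wt replicate 1. Its E12KO peak was 2343 bp wide and reached over the start, while the peaks of E47KO and of wt replicates 2 and 3 began 482, 1027 and 786 bp downstream of the start. Intron 2 held a site (chr2:50994824-50996589) that a wide E12KO peak joined from 2 wt regions, and E47KO had a peak only at the region nearer the start (chr2:50995966-50996589). The sites in all 5 lists lay far from the gene on either side, 135.5 kb upstream (chr2:51140159-51141147, 5.49-fold) and 109.8 kb downstream (chr2:50894225-50894834, 6.8-fold). A further pair downstream, at 65.91 and 82.24 kb, was in both knockouts and in wt replicates 1 and 3 at 6.35-fold and 8.38-fold. The site 198 kb upstream was in both knockouts and in no wt list.

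**Figure D3:**
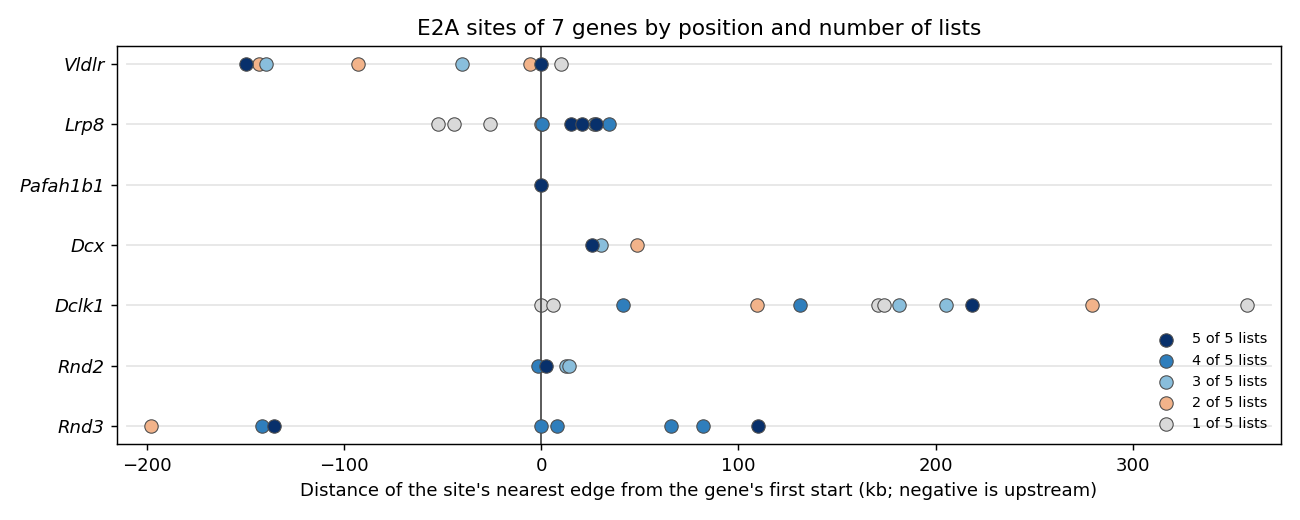
Points mark the merged E2A sites of 7 genes by distance of the nearest edge from the outermost start in kb (negative is upstream), and the colour gives the number of lists, of 5, that hold the site. Vldlr, Dclk1 and Rnd3 have sites in all 5 lists more than 100 kb away, while the shared sites of Lrp8, Pafah1b1, Dcx and Rnd2 lie within 30 kb of the start; Dab1 has its own map and Reln has no full-length start in the tables.

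Consensus sites lay inside the gene at 15 of 16 for Dab1 and at all 5 for Lrp8, 4 for Dclk1, 2 for Reln, and the single ones of Dcx and Pafah1b1. Vldlr had 1 of 4 inside, Rnd2 1 of 4 and Rnd3 2 of 7. Of the 45 wt consensus regions of the 9 genes, 33 (73.3%, 95% Wilson interval 59.0 to 84.0) lay inside the gene they name, against 52.2% of 12322 over all genes. Dab1 supplied 15 of the 33. Without Dab1, a division chosen after the data were seen, 18 of 29 (62.1%, 44.0 to 77.3) did, an interval that holds the value over all genes. These intervals cover counting error only and treat regions of 1 gene as independent.

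Fold enrichment in wt replicate 1 was moderate for most of the 9 genes. Their 20 peaks ran from 4.52-fold to 15.9-fold with a median of 6.6, beside a median of 7.48 over the whole list, which ran from 1.69-fold to 106-fold. The median −log10 q was 11.9 for the 20 peaks and 13.5 over the list. The 3 peaks above 15-fold belonged to Pafah1b1, to the far upstream site of Vldlr and to intron 2 of Lrp8, and the downstream internal start of Lrp8 followed. These are the authors' values and rank peaks within that list only.

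**Figure D4:**
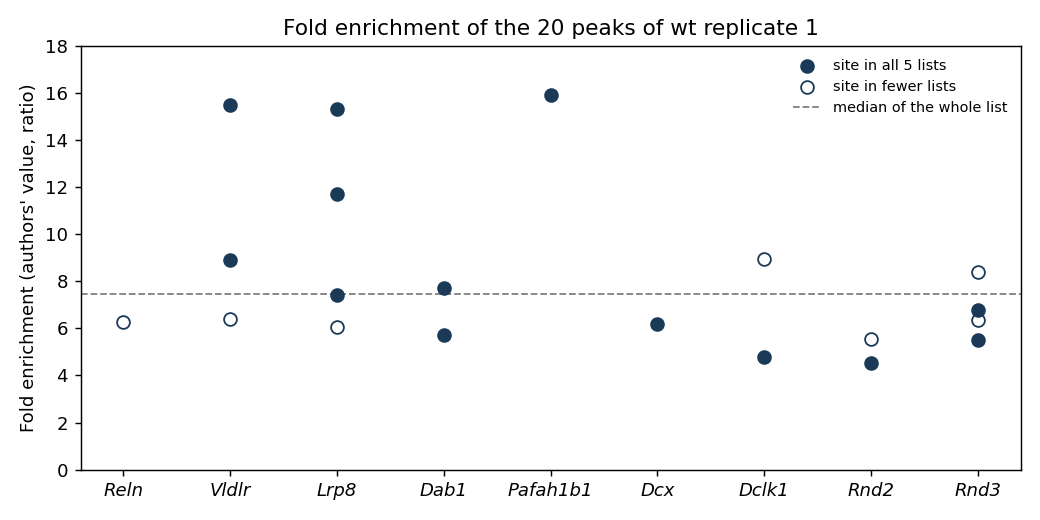
Each point is the authors' fold enrichment (ratio over the caller's background) of a wt replicate 1 peak of the named gene; filled points are sites in all 5 lists and open points sites in fewer, and the dashed line is the median of the whole list, 7.48. Peaks of Pafah1b1, Vldlr and Lrp8 reach above 15, and those of Dcx and Rnd2 stay below the line.

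The knockout libraries address whether sites near these genes still had a peak in cells without E12 or in cells without E47. No library lacked both forms, so binding without both could not be examined. E12KO had a peak at 41 of the 45 wt consensus regions (91.1%, with a Wilson interval at 95% of 79.3 to 96.5), against 96.6% over all genes. E47KO had a peak at 39 (86.7%, 73.8 to 93.7), against 93.5% over all genes. A peak was present in both at 37 (82.2%, 68.7 to 90.7), against 92.0% over all genes. The shares of the 9 genes were lower by a few regions, the intervals cover counting error only, and no test was made. All 13 regions in all 3 wt lists had a peak in both knockouts, against 98.2% of 4228 such regions over all genes, so this count is near the background. It follows from that count that the 8 regions that lacked one were each absent from a wt list as well. Of these 8, 2 lacked a peak in E12KO alone (Reln intron 4 and the nearer downstream Rnd2 site). Another 4 lacked one in E47KO alone (Vldlr at 139.5 kb, Dab1 intron 1, the farther Rnd2 site and part of Rnd3 intron 2). The last 2 lacked one in both (Vldlr at 5.62 kb and Dclk1 intron 3). Over all 12322 wt consensus regions, 184 lacked a peak in E12KO alone, 571 in E47KO alone and 230 in both.

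**Figure D5:**
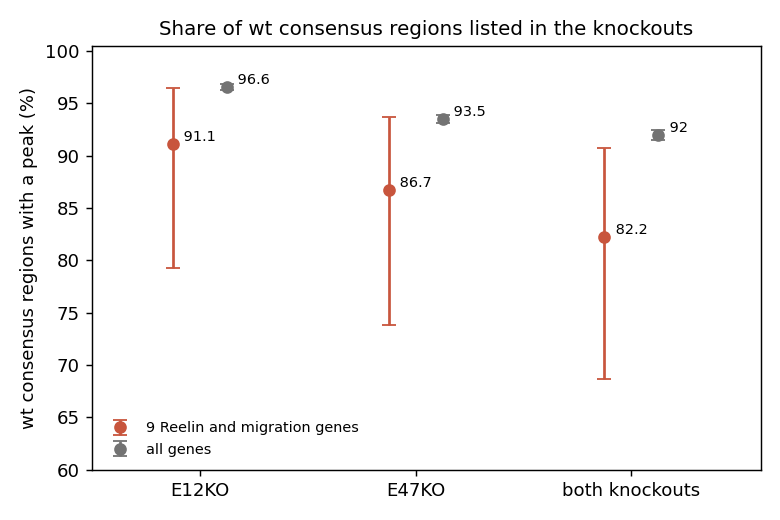
Points give the share (%) of wt consensus regions that overlapped a peak in E12KO, in E47KO and in both, for the 9 genes (45 regions, left in each pair) and for all genes (12322 regions, right), with 95% Wilson intervals for counting error; the axis starts at 60%. The shares were 91.1%, 86.7% and 82.2% for the 9 genes, and 96.6%, 93.5% and 92.0% for all genes.

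For comparison, each wt list was looked up in the same way. Those of wt replicates 1 and 2, with 6814 and 12772 peaks, are far shorter than E12KO and E47KO, with 25229 and 22176. Shares found in them are thus no scale for gaps in the knockouts, and only wt replicate 3, with 24194, is of like length. Of the 39 sites of the 9 genes in both wt replicates 2 and 3, 37 (94.9%) were in E12KO and 36 (92.3%) in E47KO, and 13 (33.3%) were in wt replicate 1. Over all genes these shares were 98.2%, 96.0% and 38.7%. Of the 18 in both wt replicates 1 and 3, 16 (88.9%) were in E12KO, 16 (88.9%) in E47KO and 13 (72.2%) in wt replicate 2, where the shares over all genes were 95.9%, 92.7% and 77.1%. The 13 in both wt replicates 1 and 2 were all in E12KO, E47KO and wt replicate 3, against 99.3%, 98.0% and 98.9% over all genes. The share found in the looked-up wt list thus ran from 33.3% to 100%, and the lowest was in the shortest list.

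The knockouts also held 8 sites (10%) that no wt list had, against 19.3% of all sites. Of these, 3 were in both knockouts (143.3 kb upstream of Vldlr, intron 1 of Dab1 at 242.2 kb and 198 kb upstream of Rnd3). E47KO alone had 4, of which 2 were in Dab1 and 2 in Dclk1, and E12KO alone had 1, upstream of Lrp8. As shares of the 80 sites, both knockouts had 3.75%, E47KO alone 5% and E12KO alone 1.25%. Over all sites these shares were 4.41%, 5.32% and 9.61%. In the other direction 15 sites (18.8%) were in a wt list and no knockout, against 14.2% of all sites. Of these 15, 9 were in wt replicate 3 alone, which is 11.2% of the 80 sites, against 7.74% of all sites.

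Other genes of the pathway, in lists of components chosen here, were bound in part. Of 14 genes of Reelin signal transduction, 10 (71.4%) had a wt consensus region, against 27.6% of protein-coding genes; Crk, Rap1a, Rap1b and Itga3 had none. All 35 regions of the 10 had a peak in E12KO, against 96.6% over all genes, and 34 (97.1%) in E47KO, against 93.5%. By −log10 q in wt replicate 1 the highest peaks were those of Fyn, the kinase that phosphorylates DAB1, 77.45 kb upstream (24.6-fold), of the phosphoinositide 3-kinase subunit gene Pik3r1, 33.07 kb upstream (23.1-fold), of the integrin gene Itgb1, 150.7 kb upstream (15.6-fold), and of the adaptor gene Nck2 in an intron (13.9-fold). Of 22 genes of the cytoskeleton and migration machinery, 14 (63.6%) had a region, against the same 27.6%. That background counts genes of every length and activity, and the lists were chosen with earlier results of these data known. The 71.4% and 63.6% thus describe these lists and carry no test. Of the 34 regions of the 14 genes, 33 (97.1%) had a peak in E12KO and 28 (82.4%) in E47KO. The E47KO share was below the 93.5% over all genes, and that difference was not tested. Cdk5, Nde1, Dync1h1, Dync1i1, Tubb3, Flna, Rnd1 and Sun1 had none. The highest peaks there by −log10 q, which is not the order by fold, were at the promoter of Cdk5r1 (26.3-fold), which encodes the Cdk5 activator p35, in an intron of the dynein chain gene Dync1i2 (7.62-fold), 24.07 kb upstream of the tubulin gene Tuba1a (7.58-fold) and at the promoter of Map1b (8.32-fold), the gene of a microtubule-associated protein.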

How the data were processed

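Peaks were called per library by the authors, and the deposited tables give each peak's place, annotated feature and nearest gene in mm9. BWA 0.7.13, Picard 1.119 and MACS2 2.1.0 are named in the submitters' processing notes; the sources used here do not give their settings. Only the deposited table of wt replicate 1 holds scores, per the file headers: pileup (coverage signal), −log10 p, −log10 q and fold enrichment (a ratio). That list carries another false discovery rate label than the other 4; its part in the list's length was not tested.

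Distances were recomputed from each peak's nearest edge to the start of the named transcript, because the wt replicate 1 table measures to another edge. Peaks sharing at least 1 bp were merged, and regions in at least 2 of 3 wt lists are wt consensus regions. Intervals are 95% Wilson intervals (Python 3.11.15, pandas 2.3.3, NumPy 2.4.6, SciPy 1.17.1). Merging and overlap were tested on simulated peaks. Groups came from the labels; wt samples may differ only technically. No test was made between genotypes. All regions in all 5 lists, inside a gene or within 10 kb of its start could be named, with the 3 highest −log10 q per gene and up to 4 examples per pathway list. The genes and lists were chosen with earlier results of these data known.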

Additional observations from a re-analysis of the deposited data

How the results depend on the processing

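Of 42 alternative values, 24 were called the same, which for counts meant within a ratio of 1.5 of the main value. Among those called the same, peaks within 100 kb of a start were 39 in E12KO, against 58 at any distance. In wt replicates 1 and 3 they were 14 and 48, against 20 and 69. Within 10 kb of a start the peaks of the 9 genes numbered 18 in E12KO, 18 in E47KO, and 9, 16 and 22 in wt replicates 1, 2 and 3; within 100 kb they were 36 in E47KO and 27 in wt replicate 2; inside the gene spans they were 13 in wt replicate 1. Required in 1 of 3 wt lists, consensus regions numbered 73, with 75.3% in E12KO and 65.8% in E47KO; required in 3 of 3, they numbered 13, with 100% in each. Leaving out a wt replicate gave 13 to 40 regions, 88.9% to 100% in E12KO and 88.9% to 100% in E47KO, where presence in both other wt lists was required. An overlap of 50% of the shorter peak left 45 regions, as did a −log10 q of at least 5 in wt replicate 1, and one of at least 10 left 42. No paired analysis was possible because each knockout has 1 library with no replicate number. Peak thresholds and read depth, unknown for most lists, limit every statement that a site is missing.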
